A study of Mus musculus with 4 samples.

Results

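The genes studied here encode 6 inhibitory receptors of T cells, namely Pdcd1 (PD-1), Lag3, Havcr2 (TIM-3), Tigit, Btla and Cd160. They are a list of gene names with no threshold on the measured values, although earlier results of these data were known when it was drawn up. All 6 were measured, each by 1 probe set with a single gene symbol, among 22180 named genes. RNA of 4 CD4 T lineage populations from mice on the C57BL/6 background, aged 8 weeks, was hybridised to 1 Affymetrix array per population. Natural Th1 cells (nTh1) were CD4+CD62L+CXCR3+ thymocytes of CIITAtg mice, which by their name carry a transgene of CIITA, the master regulator of MHC class II genes. The promoter of the transgene is not given in the labels. Classical Th1 cells (cTh1) were CD4+CD62Lhi cells of wild-type spleen activated by CD3/CD28 beads and cultured for 5 days in IL-12 (2 ng/ml) and IL-2 (50 U/ml) while IL-4 was blocked by antibody. TT naive cells were CD4+CD62L+CXCR3- thymocytes of CIITAtg mice. Naive cells were CD4+CD62Lhi cells of wild-type spleen, with no culture named in the labels. The labels do not say how many animals gave each RNA. With 1 array per group there was no replicate spread and no test was made, so every value below describes these 4 arrays.

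Inhibitory receptors sit on the T cell surface and dampen the signal of the antigen receptor when they meet their ligands. Most appear after activation, and their joint, lasting presence is known from T cells exposed to antigen for a long time. PD-1 binds PD-L1 and PD-L2, LAG-3 is a relative of CD4 that binds MHC class II, and TIM-3 was first described on Th1 cells and cytotoxic T cells. TIGIT competes with the activating receptor CD226 for CD155, while BTLA and CD160 share the ligand HVEM.

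The labels were checked against genes outside the receptor family. Cd4 lay between 12.33 and 12.72 and Cd3e between 12.88 and 13.11 on the log2 scale on all 4 arrays, and 9 of 9 measured T cell markers were above the level filter on each. The filter was 6.61, the median of all values. The array labelled naive went against its label. It had Cxcr3 at 9.80, Tbx21 (T-bet) at 9.81 and Zbtb16 (PLZF, the factor of innate-like T cells) at 12.23, against 7.76, 7.11 and 9.36 in TT naive cells, and the MHC class II gene H2-Aa at 12.66, as in nTh1 cells. It is called the array labelled naive throughout, and the cTh1 cells are also compared with TT naive cells in its place. The Y-linked gene Eif2s3y was at 5.16 in nTh1 and 4.97 in cTh1, against 8.55 in TT naive and 8.61 on the array labelled naive, so comparisons across these pairs also cross that difference. Xist, the RNA of the inactive X chromosome, was high on all 4 arrays, at 13.25 in nTh1, 12.56 in cTh1, 13.03 in TT naive and 12.59 on the array labelled naive. Both genes were named after their values were seen. The cTh1 array carried B cell and CD8 markers, with Cd79a at 10.29 and Cd8a at 10.31, against at most 7.64 and 6.42 on the other arrays.

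The promoters of Pdcd1 and Cd160, which were highest on the array labelled naive, and of Havcr2, highest in cTh1, are printed to set genes with different peaks side by side. RefSeq promoters (GRCm38.p6, 250 bases before to 50 after the start) were matched by gene ID for 5 of the 6 genes, not for Lag3. Capitals mark the T-box core GGTGTGA (or its reverse, TCACACC) and the NFAT core GGAAA (or TTTCC), searched on both strands, and no match of one overlapped a match of the other.
Pdcd1, chr1:94052504-94052803, minus strand: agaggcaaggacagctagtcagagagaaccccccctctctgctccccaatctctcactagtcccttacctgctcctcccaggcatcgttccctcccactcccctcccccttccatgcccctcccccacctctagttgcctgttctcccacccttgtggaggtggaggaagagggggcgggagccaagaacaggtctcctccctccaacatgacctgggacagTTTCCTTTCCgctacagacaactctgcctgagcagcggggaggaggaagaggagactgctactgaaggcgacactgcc
Havcr2, chr11:46454681-46454980, plus strand: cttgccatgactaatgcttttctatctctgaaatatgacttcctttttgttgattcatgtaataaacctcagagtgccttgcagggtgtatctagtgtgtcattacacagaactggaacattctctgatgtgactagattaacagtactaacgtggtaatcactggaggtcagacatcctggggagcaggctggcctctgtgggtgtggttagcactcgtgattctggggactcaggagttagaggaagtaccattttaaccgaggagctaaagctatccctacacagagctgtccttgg
Cd160, chr3:96814472-96814771, minus strand: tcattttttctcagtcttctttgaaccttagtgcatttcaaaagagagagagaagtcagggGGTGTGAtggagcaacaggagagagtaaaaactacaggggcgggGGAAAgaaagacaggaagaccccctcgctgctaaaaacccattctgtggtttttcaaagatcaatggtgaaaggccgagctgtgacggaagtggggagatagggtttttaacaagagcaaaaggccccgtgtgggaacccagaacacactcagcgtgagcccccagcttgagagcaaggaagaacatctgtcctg
The T-box core was present in 1 of the 6 promoters found, the Cd160 promoter printed here, and in 3.98% of 32851 mouse promoters of 300 bases. The NFAT core was present 2 times in Pdcd1, 2 times in Tigit and 1 time in this Cd160 promoter, and in 61.3% of all promoters. Neither core was found in the Havcr2 or Btla windows, nor in the other Cd160 promoter. A match is a run of letters and was not tied to the binding of any factor.

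The 6 receptors did not share one profile. Lag3 and Havcr2 were highest in cTh1 cells, Pdcd1 and Cd160 were highest on the array labelled naive, Tigit was lowest in TT naive cells, and Btla was nearly level. Over the 4 arrays 5 of the 6 genes spanned at least 1 on the log2 scale (a 2-fold difference), and 4 did so without the array labelled naive. The share of all genes that spanned at least 1 was not counted. The smallest span of the 5, Tigit at 1.58, was reached by 6.87% of genes above the filter. The median span of the 6 was 2.13, beside 0.51 for the 13238 genes above the level filter on any array, and Havcr2 and Cd160 passed that filter through 1 array each. In bulk RNA, fewer cells carrying a transcript and less transcript per cell cannot be told apart.

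**Figure D1:**
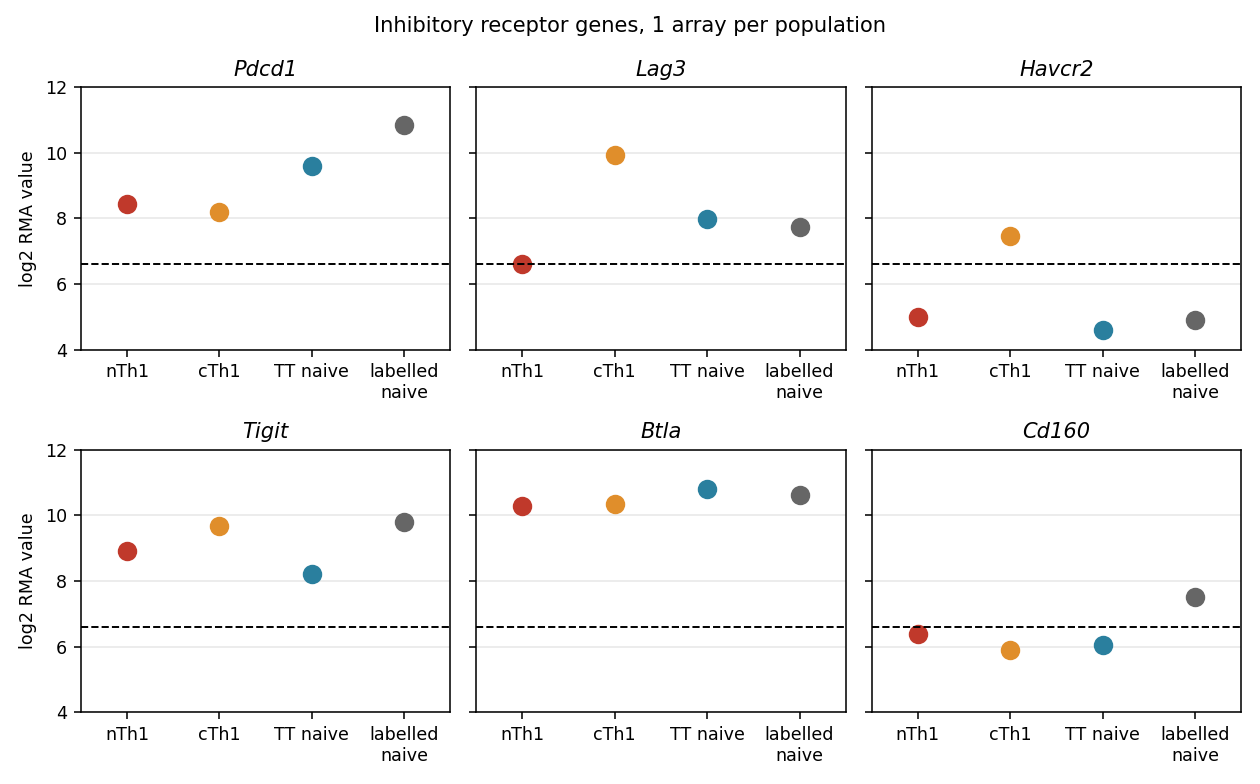
Log2 RMA value of each receptor gene (vertical axis) on the arrays of nTh1, cTh1, TT naive and labelled naive cells (horizontal axis). Each point is 1 array and the dashed line is the level filter of 6.61. Havcr2 is above the line in cTh1 alone, at 7.47, and Cd160 on the array labelled naive alone, at 7.51.

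Lag3, the CD4 relative that binds MHC class II, read 6.63 in nTh1, 9.92 in cTh1, 7.97 in TT naive and 7.73 on the array labelled naive. The cTh1 array stood above the rest, nTh1 stood below, and the pair between them differed by 0.24. As a measure of error, different probe sets of the same gene were compared over 455 to 480 genes, whose SD was between 0.26 and 0.48 depending on the comparison. This spread holds no part of the variation from animal to animal or sort to sort. The gaps above and below the middle pair, 1.95 and 1.10, were beyond 2 such SDs (0.88 and 0.74), and the gap of 0.24 was not. The span of Lag3, 3.30 or 9.82-fold, was reached by 0.778% of genes above the filter. Its low end, the nTh1 value, lay just above the filter, so the size of the span is uncertain.

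The MHC class II ligand gene H2-Aa was at 12.66 in nTh1 and 10.73 in cTh1, with 12.29 in TT naive and 12.66 on the array labelled naive. Lgals3 (galectin-3), also described as a ligand of LAG-3, was at 7.76 in nTh1, 9.24 in cTh1, 6.86 in TT naive and 7.89 on the array labelled naive. Lag3 was thus highest on the array where H2-Aa was lowest and Lgals3 highest. Fgl1, which encodes another ligand of LAG-3, was under the filter on all 4 arrays, between 5.57 and 5.83, as was Clec4g (LSECtin), between 5.65 and 6.12. The proteases Adam10 and Adam17, which shed LAG-3 from the surface, spanned 10.47 to 10.70 and 9.07 to 9.35.

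Havcr2, which encodes TIM-3, read 5.00 in nTh1, 7.47 in cTh1, 4.59 in TT naive and 4.91 on the array labelled naive. The cTh1 value was the only one above the filter, by 0.87. Every difference of Havcr2 between cTh1 and another array therefore has a value under the filter at its low end, and its size is uncertain. The gap of 2.47 to the next array, nTh1, exceeded 2 SD between probe sets (0.96), while the other 3 arrays lay within 0.41 of each other and their order did not exceed that spread. The order of nTh1 and the array labelled naive turned when arrays were centred on their medians (0.09 as deposited, -0.05 centred).

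Ligands described for TIM-3 were less variable than the receptor. Lgals9 (galectin-9) lay between 11.71 and 11.97 and Hmgb1 between 11.53 and 12.08. Ceacam1 was at 8.21 in nTh1, 8.12 in cTh1, 7.16 in TT naive and 7.48 on the array labelled naive. Bag6, whose product binds the TIM-3 tail, was between 10.94 and 11.12.

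Markers of other lymphocytes stood high on the array where Lag3 and Havcr2 were high. The summed linear values of the 3 CD8 markers were 1059 in nTh1, 4979 in cTh1, 841 in TT naive and 579 on the array labelled naive, and 2, 3, 2 and 2 of the 3 were above the filter. For the 9 measured B cell markers the sums were 1275, 4891, 703 and 731 in the same order, with 6, 8, 2 and 3 above the filter. Myeloid cells also carry TIM-3. Their 12 markers summed to 4602 in nTh1, 3122 in cTh1, 2952 in TT naive and 3234 on the array labelled naive. No marker was at 0, since RMA gives every probe set a value, and the part of these cells in the Lag3 and Havcr2 values was not tested.

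Pdcd1, which encodes PD-1, read 8.43 in nTh1, 8.19 in cTh1, 9.59 in TT naive and 10.85 on the array labelled naive. The array labelled naive was 1.25 above TT naive, and TT naive was 1.16 above nTh1, both beyond 2 SD between probe sets (0.61 and 0.51). The Th1 arrays differed by 0.24, within that spread. Pdcd1 and Lag3 thus had their highest values on different arrays, and Pdcd1 was lowest where Lag3 was highest. The span of Pdcd1 was 2.66, or 6.31-fold, and 1.69% of genes above the filter spanned as much.

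Cd274, which encodes PD-L1, was at 8.98 in nTh1, 9.20 in cTh1, 9.09 in TT naive and 9.64 on the array labelled naive. Pdcd1lg2 (PD-L2) was between 6.49 and 6.98, close to the filter. The phosphatase genes Ptpn6 (SHP-1) and Ptpn11 (SHP-2, which PD-1 recruits) lay between 10.99 and 11.77 and between 9.52 and 10.03. None of these 4 genes reached a 2-fold difference between any pair of arrays. Innate-like T cell markers, 7 of 7 measured, summed to 6838 in nTh1, 5951 in cTh1, 8799 in TT naive and 14866 on the array labelled naive, where Pdcd1 was highest. The 6 follicular helper markers summed to 4320 in nTh1, 6487 in cTh1, 6103 in TT naive and 7904 on that array. The part of either cell type in the Pdcd1 values was not tested.

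Tigit read 8.91 in nTh1, 9.68 in cTh1, 8.23 in TT naive and 9.81 on the array labelled naive. Only the lowest step, TT naive under nTh1 by 0.68, exceeded 2 SD between probe sets (0.51). Neighbours above it did not, with gaps of 0.77 and 0.13. The receptor gene was thus lowest in TT naive cells. Among the other 3 arrays no gap between neighbours exceeded that spread. The outer pair did, with nTh1 at -0.90 against the array labelled naive, where 2 SD were 0.74.

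The other genes of the CD155 axis varied less. Cd226, the activating rival of TIGIT, was at 9.64 in nTh1, 10.26 in cTh1, 9.68 in TT naive and 9.59 on the array labelled naive, and Cd96, a further receptor of that family, lay between 11.27 and 11.61. Pvr, which encodes CD155, was at 11.27 in nTh1, 11.02 in cTh1, 10.45 in TT naive and 10.18 on the array labelled naive. Nectin2 was between 7.46 and 7.71. Nectin3 and Nectin4 were under the filter on every array. Regulatory T cells carry much TIGIT. Their 8 markers, all above the filter on each array, summed to 3329 in nTh1, 12746 in cTh1, 5037 in TT naive and 5409 on the array labelled naive. Of these markers Foxp3 was at 7.29 in nTh1, 9.21 in cTh1, 9.87 in TT naive and 8.82 on the array labelled naive. Gpr83 was at 7.40, 7.42, 9.51 and 8.80 in the same order, so both were highest in TT naive cells, where Tigit was lowest. Ctla4, Il2ra, Tnfrsf18 and Ikzf4 were highest in cTh1, and Ikzf2 and Capg on the array labelled naive. The largest terms of the cTh1 sum were Il2ra at 12.52 and Tnfrsf18 at 11.66. The part of regulatory T cells in the Tigit values was not tested.

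Btla, a lymphocyte receptor that binds HVEM, was the most level of the 6. It read 10.30 in nTh1, 10.33 in cTh1, 10.81 in TT naive and 10.63 on the array labelled naive. No neighbouring gap exceeded 2 SD between probe sets, and the whole span was 0.51, a value that 50.6% of genes above the filter reached. B cells also express Btla, and the part of B cells, whose markers are summed above, in the Btla values was not tested.

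Cd160, whose product is anchored in the membrane by a lipid and is known from NK and cytotoxic T cells, read 6.40 in nTh1, 5.90 in cTh1, 6.04 in TT naive and 7.51 on the array labelled naive. The last value was the only one above the filter, by 0.90, and 1.10 above nTh1, beyond 2 SD between probe sets (0.74). The other 3 arrays had no gap beyond that spread. The NK markers Ncr1, Klrb1c and Klre1 were under the filter on all 4 arrays. The 8 measured NK markers summed to 2986 in nTh1, 3486 in cTh1, 1105 in TT naive and 2841 on the array labelled naive, with 5, 5, 4 and 5 above the filter, and the part of NK cells in the Cd160 value was not tested.

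Tnfrsf14, which encodes HVEM, the shared ligand of BTLA and CD160, was at 9.21 in nTh1, 9.35 in cTh1, 9.58 in TT naive and 9.22 on the array labelled naive. Tnfsf14 (LIGHT), the cytokine that also binds HVEM, was at 7.31 in nTh1, 7.12 in cTh1, 7.36 in TT naive and 9.04 on the array labelled naive. Cd160 and Tnfsf14 were thus both highest on the array labelled naive.

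Thymocytes of CIITAtg mice with and without CXCR3 were compared to see which receptor genes differ between these 2 arrays. The arrays also differ in the Y-linked Eif2s3y, at 5.16 in nTh1 and 8.55 in TT naive. Effects of the sort marker and of that difference cannot be told apart. No receptor was at least 2-fold higher in nTh1 cells, and 2 of the 4 that passed the filter, Pdcd1 at -1.16 and Lag3 at -1.35, were at least 2-fold lower. Among 12435 genes tested, 1.41% were at least 2-fold higher and 1.09% at least 2-fold lower. A difference as low as that of Lag3 was seen in 0.442% of them, and as low as that of Pdcd1 in 0.764%. Tigit was higher by 0.68 and Btla was at -0.51, both under 2-fold. Havcr2 and Cd160 were under the filter on both arrays, with differences of 0.41 and 0.36. The nTh1 value of Lag3 was just above the filter, so the size of its difference is uncertain.

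Other marker lists differed between the same arrays, where 1.41% of all genes tested were at least 2-fold higher and 1.09% lower. Of 8 regulatory T cell markers, 2 were at least 2-fold lower in nTh1, Foxp3 at -2.57 and Gpr83 at -2.11, and 2 of 6 follicular helper markers were lower, Il21 at -2.55 and Cd200 at -1.61. Of 11 myeloid markers tested, 6 were at least 2-fold higher, led by Lyz2 at 3.38. Of 4 immature thymocyte markers tested, 3 were higher, Aqp11 at 2.76, Cd24a at 2.19 and Dntt (the terminal transferase of antigen receptor rearrangement) at 2.01. Of 5 NK markers tested 4 were higher, Eomes at 1.84, Tyrobp at 1.75, Fcer1g at 1.66 and Gzma at 1.64. The remaining one, Klrd1, was at -0.08, and Ncr1, Klrb1c and Klre1 were under the filter on both arrays. The B cell markers Cd79a and Cd79b, the dendritic cell marker Itgax and the mast cell marker Cpa3 were higher as well, and of the 6 innate-like markers tested Xcl1 was higher and Il17rb lower. The summed values of the 6 measured immature thymocyte markers were 3697 in nTh1, 2469 in cTh1, 903 in TT naive and 1228 on the array labelled naive. The cTh1 sum includes Cd8a, also a CD8 marker. It was at 6.42 in nTh1, 10.31 in cTh1, 6.22 in TT naive and 6.31 on the array labelled naive. LAG-3 is known from regulatory T cells and PD-1 from follicular helper cells, and the part of any of these cell types in the Lag3 and Pdcd1 differences was not tested.

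**Figure D2:**
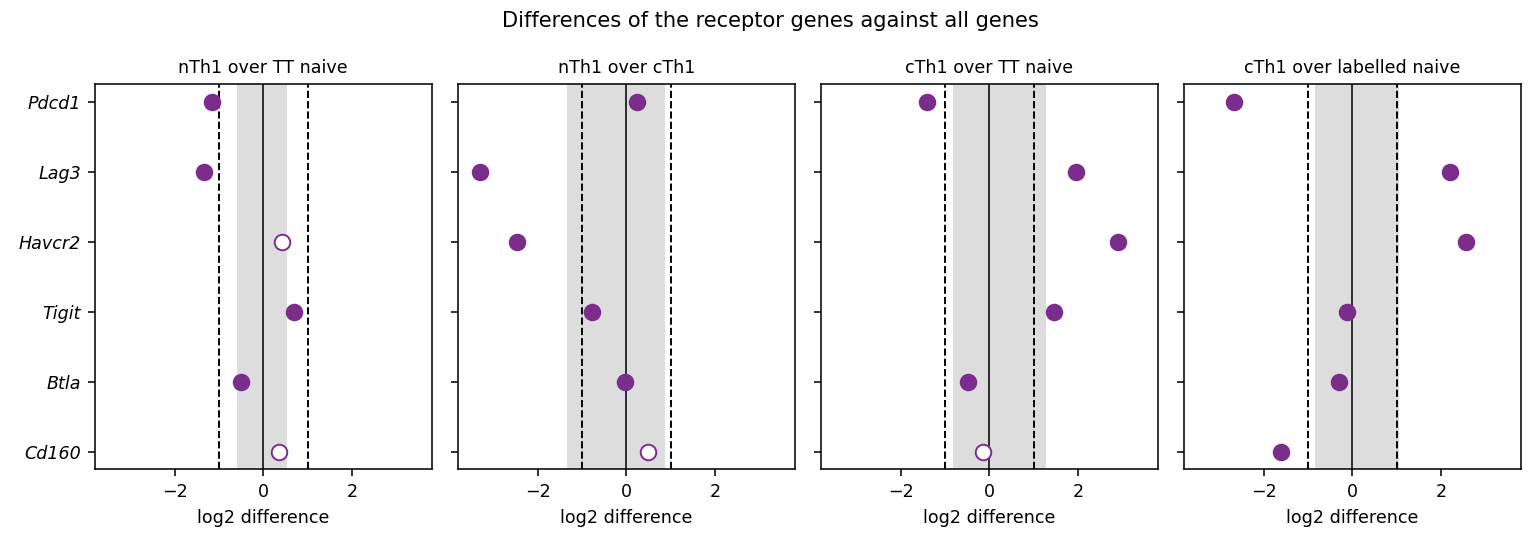
Log2 difference (horizontal axis) of each receptor gene (rows) for nTh1 over TT naive, nTh1 over cTh1, cTh1 over TT naive and cTh1 over the array labelled naive. Each point is a difference between 2 arrays, open where both were under the level filter, the dashed lines mark a 2-fold difference and the grey band runs from the 5th to the 95th percentile of all genes tested. Lag3 and Havcr2 lie left of the band for nTh1 over cTh1 and right of it for cTh1 over TT naive.

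The title of the series sets natural against classical Th1 cells. Lag3 was 9.82-fold lower in nTh1 than in cTh1 (-3.30 on the log2 scale). Its nTh1 value, 6.63, lay just above the filter of 6.61, so the size of this difference is uncertain. Havcr2 was at -2.47, a difference that reaches to an nTh1 value under the filter and is no measured fold. They were 2 of the 5 receptors that passed the filter, and none was at least 2-fold higher. Among 12841 genes, 8.3% were at least 2-fold lower in nTh1 and 3.46% at least 2-fold higher. Havcr2 passed the filter through the cTh1 array alone. Pdcd1 at 0.24 and Btla at -0.04 differed by less than the SD between probe sets (0.48), Tigit was at -0.77, and Cd160, under the filter in both, was at 0.50. Centring the arrays moved every difference in this comparison by -0.18, which put Lag3 at -3.48 and Pdcd1 at 0.06, and gave 278 genes higher and 1491 lower, beside 444 and 1066 as deposited. Effects of tissue, genotype and culture cannot be told apart in this comparison.

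The comparison of cTh1 with TT naive cells gives the cultured cells a baseline other than the array labelled naive. Havcr2 was higher in cTh1 by 2.89, Lag3 by 1.95 and Tigit by 1.46, which made 3 of the 5 receptors tested at least 2-fold higher, and Pdcd1 was lower at -1.41. The share of all 12728 genes was 7.24% higher and 3.02% lower by 2-fold. Differences as high as those of Havcr2, Lag3 and Tigit were seen in 0.77%, 2.03% and 3.71% of genes. Havcr2 was tested through the cTh1 array alone and could enter only as higher, so the size of its difference is uncertain. Btla was at -0.47 and Cd160 at -0.14.

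Against the array labelled naive, Havcr2 was higher in cTh1 by 2.56 and Lag3 by 2.19, while Pdcd1 at -2.66 and Cd160 at -1.60 were lower, so that 2 of 6 receptors lay at least 2-fold on each side. Over 12835 genes 5.13% were higher and 3.35% lower. Havcr2 was again tested through the cTh1 array alone and could enter only as higher. Cd160 was tested through the array labelled naive alone. Tigit, 2.74-fold higher in cTh1 than in TT naive cells, was at -0.13 against the array labelled naive, and Cd160 passed the 2-fold mark only against that array. Havcr2, Lag3 and Pdcd1 had the same direction against both baselines, which share the cTh1 array.

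The array labelled naive also served as the baseline for both thymic arrays. In TT naive cells Tigit at -1.58, Cd160 at -1.47 and Pdcd1 at -1.25 were at least 2-fold lower, 3 of 5 receptors tested, where 2.59% of 12582 genes were lower and 0.795% higher. In nTh1 cells Pdcd1 was at -2.42, and Lag3 and Cd160 were each at -1.10, again 3 of 5 tested, where 4.43% of 12754 genes were lower and 1.93% higher. Tigit was at -0.90 in that comparison and at -1.03 with centred arrays. These comparisons share their baseline array and depend on its label. Cd160 passed the filter through that array alone, and the nTh1 value of Lag3 lay just above the filter.

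Other genes of the pathway were taken from lists, chosen with earlier results of these data known. Of 21 measured inhibitory receptors outside the 6, 8 of 19 that passed the filter were at least 2-fold lower in nTh1 than in cTh1 and none higher, with a median of -0.73 beside -0.08 over all genes, of which 8.3% were lower and 3.46% higher. Ctla4, the CD28 rival that binds CD80 and CD86, was at 7.95 in nTh1, 10.46 in cTh1, 8.05 in TT naive and 8.37 on the array labelled naive. It was thus high in cTh1 as were Lag3 and Havcr2. The others lower in nTh1 were Lilrb4a at -3.43, Klrc1 (NKG2A) at -3.34, Cd22 at -2.34, Entpd1 (CD39) at -2.04, Il10ra at -1.91, Klrg1 at -1.78 and Cd101 at -1.11. Cd22 is also a B cell marker.

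In cTh1 over TT naive cells, 7 of 19 of these receptors were 2-fold or more higher, beside 7.24% of all genes, and none was lower, led by Lilrb4a at 6.96 and Klrc1 at 4.33. Against the array labelled naive 7 of 19 were higher, beside 5.13% of all genes, among them Vsir (VISTA) at 1.11, and 1 was lower, Nt5e (CD73) at -1.29. In nTh1 over TT naive cells Lilrb4a at 3.53, Fcgr2b at 1.07 and Entpd1 at 1.04 were higher, and Nt5e at -1.47 and Cd101 at -1.31 were lower, of 17 tested, beside 1.41% of all genes higher and 1.09% lower. Fcgr2b is an Fc receptor of B cells and myeloid cells, whose markers were also higher there.

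Of 11 ligand genes tested, 1 was at least 2-fold higher in nTh1 over TT naive, Ceacam1 at 1.05, and 1 was lower in nTh1 over cTh1, Lgals3 at -1.48. With 1.41% of all genes higher in the first comparison and 8.3% lower in the second, a single gene of 11 is close to what all genes show in the second. Lgals3 was higher by 2.38 in cTh1 over TT naive and by 1.36 over the array labelled naive, where Tnfsf14 was at -1.92. In nTh1 over the array labelled naive Pvr was at 1.09 and Tnfsf14 at -1.73, beside 1.93% of all genes higher and 4.43% lower. Of the 9 rival or activating receptors, 3 were lower in nTh1 than in cTh1, all from the TNF receptor family, beside 8.3% of all genes, with Tnfrsf9 (4-1BB) at -2.83, Tnfrsf4 (OX40) at -2.71 and Tnfrsf18 (GITR) at -2.15. Among 18 signalling partners of these receptors, 2 reached 2-fold in nTh1 over cTh1, Rasa2 at 1.26 and Sh2d1a at -1.05. That is close to what all genes show, with 3.46% higher and 8.3% lower. None did in the comparisons of nTh1 or cTh1 with TT naive or the array labelled naive. There the share of all genes on one side ran from 1.09% to 7.24%.

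Transcription factors known to act on these receptor genes went both ways. Between nTh1 and cTh1, 5 of 29 were at least 2-fold higher and 8 lower, with a median of -0.10, beside 3.46% of all genes higher and 8.3% lower. Higher were Eomes at 2.74, Tox at 1.87, Nr4a1 at 1.84, Nr4a2 at 1.69 and Nr4a3 at 1.62, and TOX and the NR4A factors are known from exhausted T cells. Lower were Tbx21 at -3.33, Bhlhe40 at -3.22, Nfil3 at -2.46, Prdm1 (Blimp-1) at -1.99, Foxp3 at -1.92, Hif1a at -1.89, Rbpj at -1.24 and Maf at -1.08. NFIL3 is known to induce Havcr2 in T cells, and the part of any of these factors in the Havcr2 difference was not tested. The cTh1 array, with the highest Lag3 and Havcr2, thus had the lowest Tox, at 8.42, against 10.28 in nTh1, 10.58 in TT naive and 10.75 on the array labelled naive.

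Against TT naive cells, 8 of 29 factors were at least 2-fold higher in cTh1, led by Tbx21 at 4.14, and 6 were lower, led by Tox at -2.16, beside 7.24% and 3.02% of all genes. Against the array labelled naive 5 were higher and 10 lower, beside 5.13% and 3.35%, among them Tox2 at -1.47 and Ikzf2 at -1.48. In nTh1 over TT naive cells Eomes at 1.84, Stat4 at 1.52 and Nr4a2 at 1.00 were higher. Foxp3 at -2.57, Id3 at -1.77, Egr3 at -1.17 and Egr2 at -1.08 were lower there, and Pdcd1 and Lag3 were lower in the same comparison. The EGR factors follow a signal from the antigen receptor, whose part in these differences was not tested. Of the other NR4A genes, Nr4a1 was at 0.11 and Nr4a3 at 0.15 in this comparison.

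**Figure D3:**
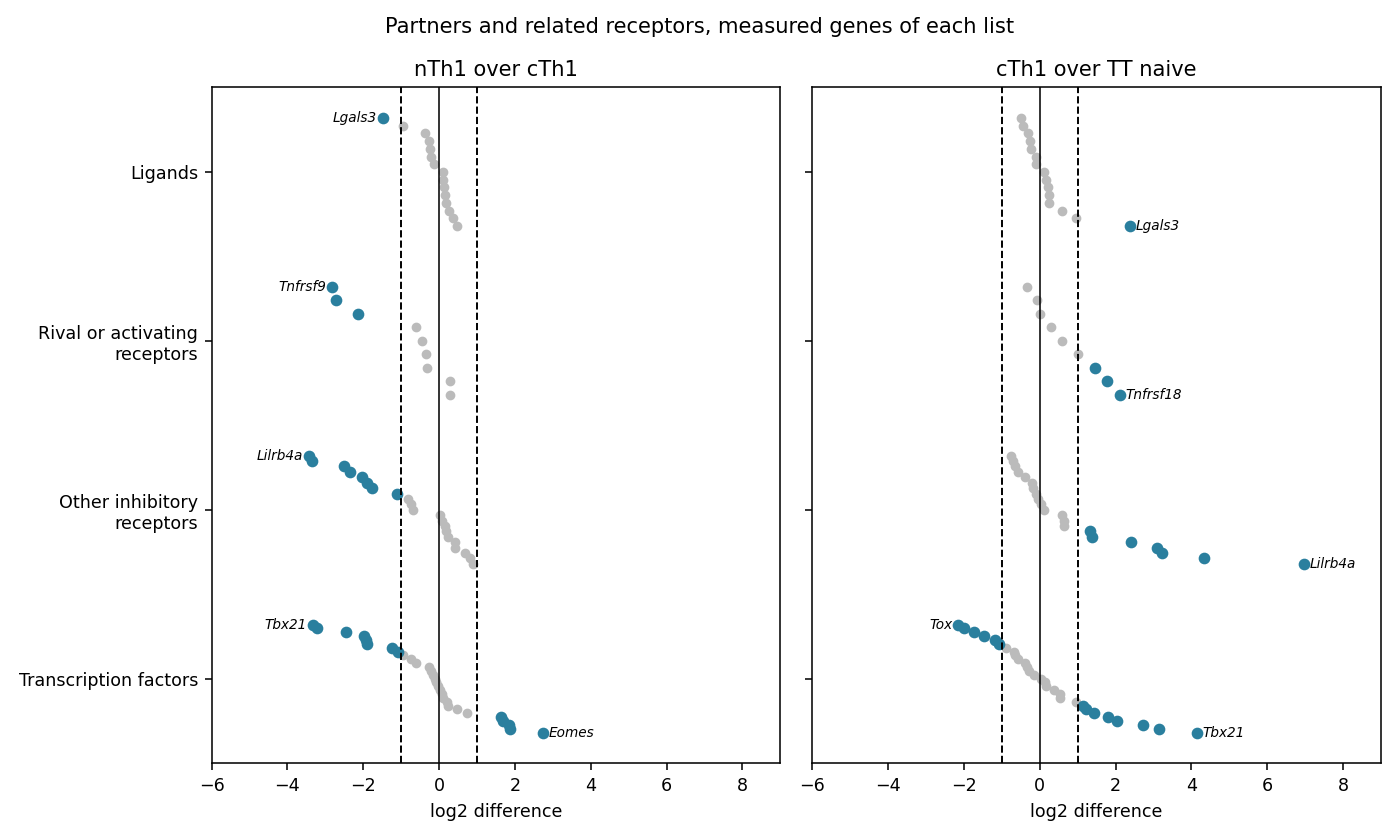
Log2 difference (horizontal axis) of each measured gene in the lists of ligands, rival or activating receptors, other inhibitory receptors and transcription factors (rows), for nTh1 over cTh1 and cTh1 over TT naive. Each point is 1 gene, coloured where it lies at or beyond the dashed 2-fold lines, and the outermost gene on a side is named where it lies past them. Lilrb4a lies farthest out for cTh1 over TT naive, at 6.96.

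Genes with similar profiles were sought for the 5 receptors that spanned at least 1, as the smallest root mean square distance between log2 profiles over the 4 arrays, each centred on its own mean. For Pdcd1 these were Rbm24 at a distance of 0.07, Moxd1 at 0.10 and the Th2 cytokine gene Il4 at 0.14. For Havcr2 they were Bank1, a B cell adaptor, at 0.07, Nmur1 at 0.09 and Esm1 at 0.09. For Lag3 they were farther away, with Tnfrsf4 at 0.21, the sterol demethylase gene Cyp51 at 0.21 and Itga7 at 0.23. For Tigit they were Eif4a1 at 0.08, Plekhg3 at 0.11 and the integrin gene Itgb1 at 0.11, and for Cd160 they were Lmo4 at 0.08, Itgae (CD103) at 0.11 and Alpl at 0.17.

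Within the family the closest pair was Btla with Cd160 at 0.62, followed by Tigit with Cd160 and Lag3 with Havcr2, both at 0.64, and Pdcd1 with Cd160 at 0.66. The farthest was Pdcd1 with Havcr2 at 1.98. Each of these 5 receptors thus had other genes nearer to it than any receptor of the 6. With 4 arrays many genes match a profile, and for Havcr2 96 genes had a Pearson r of 0.99 or more. These distances describe the arrays.

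**Figure D4:**
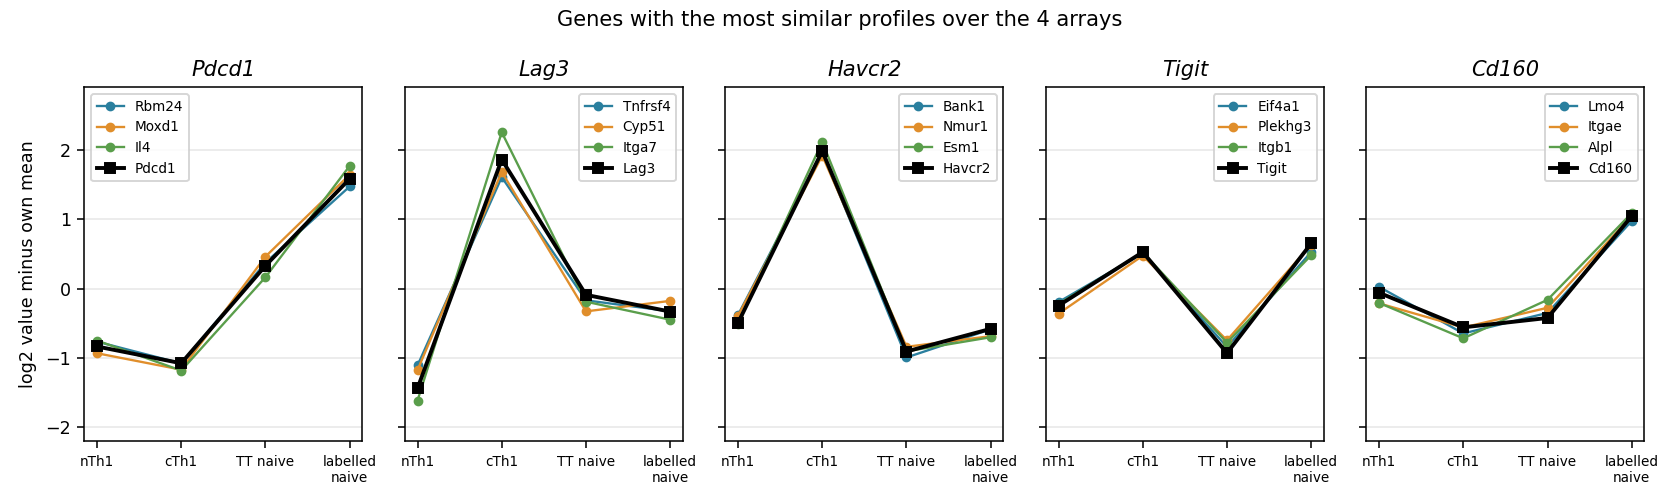
Log2 value minus the gene's own mean over the 4 arrays (vertical axis) for 5 receptor genes (black squares) and the 3 genes nearest to each (coloured circles), on the arrays of nTh1, cTh1, TT naive and labelled naive cells (horizontal axis). Each point is 1 array. Lag3 and Havcr2 peak in cTh1, and Pdcd1 and Cd160 on the array labelled naive.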

How the data were processed

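Per the submitters' processing notes, the authors made the deposited log2 values of each probe set by RMA (Affymetrix Expression Console, version 1.3.1). Per the labels' protocols, 300 ng of total RNA was labelled with biotin. For its summary level nothing is given in the sources used here. All 4 columns were matched by sample identifier, and 0 stayed unmatched.

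Of 41345 probe sets, 23521 had 1 gene symbol in the platform's annotation, and each gene was read from its probe set of highest mean. Genes below 6.61, the median over all values, on both arrays of a comparison were left out, and differences of 2-fold or more were counted. Each group had 1 array, which limits the precision and allows no test. Lists and members were chosen with earlier results of these data known. Named genes were the 6 receptors, listed genes at 2-fold in nTh1 over TT naive, nTh1 over cTh1 or cTh1 over either baseline, the 3 nearest profiles per receptor (predicted genes, small RNAs and receptor segments left out) and genes that check the labels. Ligands, rivals and partners of a receptor and some cell type markers were also named without reaching 2-fold, outside that rule. RefSeq sequences and gene IDs were of GRCm38.p6, used without coordinates for the probe sets. A search of protein motifs was not run. The counting step was checked on simulated data. Alternatives were a 3-fold threshold, omission of the filter, its rise to the 75th percentile, median centring, loess (span 0.3) and averaging of probe sets. Software was Python 3.11.15, with statsmodels 0.14.6, pandas 2.3.3, numpy 2.4.6 and matplotlib 3.10.9.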

Additional observations from a re-analysis of the deposited data

How the results depend on the processing

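Of 76 alternative counts of receptors, 66 stayed within 1.5 times the count given above. Some of these could not change. Averaging probe sets left every count as it was, and a count of 0 stays 0 at 3-fold or with a higher filter. With a filter at the 75th percentile, 1 receptor stayed at least 2-fold lower for nTh1 over TT naive, nTh1 over cTh1, nTh1 over the array labelled naive and cTh1 over the array labelled naive, and 1 higher in the last, because fewer genes were tested. At 3-fold, 0 were lower for nTh1 over TT naive, cTh1 over TT naive and TT naive over the array labelled naive, and 1 for nTh1 over the array labelled naive. With TT naive in place of the array labelled naive, chosen after the values were seen, 1 receptor was lower in cTh1. Centring, loess and the mean of all probe sets moved no receptor's difference by more than the SD between probe sets. Each receptor has 1 probe set, so the last could not change it. Over all genes, centring gave 167 higher and 799 lower for nTh1 over the array labelled naive, against 246 and 565 as deposited, and loess gave 319 and 445. For nTh1 over cTh1 loess gave 529 and 930. A filter at the 75th percentile left 99 higher for nTh1 over TT naive, against 175. By Pearson r, 1, 0 and 1 of the 3 genes nearest to Lag3, Havcr2 and Cd160 stayed nearest. Without the array labelled naive, also chosen then, 1 of 3 stayed for Pdcd1 and 0 for the other 4 receptors. No paired analysis was possible because each group has 1 array.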
